A study of Bos taurus with 68 samples.

Results

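Catalase (CAT), the glutathione peroxidases (GPX), the peroxiredoxins (PRDX) and the superoxide dismutases (SOD) were followed in cow liver around calving. Members were all array clones whose gene symbol was CAT or began with PRDX, GPX or SOD and a digit. This gave 15 clones of 13 genes, out of 5693 listed clones: CAT, GPX1, GPX3, GPX4, GPX8, PRDX1 to PRDX5, PRDX6 on 2 clones, SOD1, and SOD2 on 2 clones. The paired clones are called PRDX6 clone a, PRDX6 clone b, SOD2 clone a and SOD2 clone b. A clone was tested if at least 3 cows had a value on each day, which kept 14 of the 15 members and 5280 clones in all. GPX3, with values in 28 of 30 cow-days, was the member left out and is described separately.

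Liver RNA came from 5 cows, numbered 6934, 6983, 7079, 7186 and 7188, on days -65, -30, -14, 1, 14, 28 and 49 relative to calving. The labels give no treatment, breed or age. Each liver RNA was hybridised against a reference standard RNA on 2 arrays with the dyes exchanged, and the values are log2 ratios of liver over reference. Arrays came from 2 prints, and the values below are those of the larger print, with 30 of 34 cow-days. It held all 5 cows on days -65, -30, 1 and 28, 3 each on days -14 and 14, and 4 on day 49, for which cow 6983 had no array. The other 4 cow-days, of days -14 and 14, were on the smaller print. Exchanged arrays should correlate below 0 before their signs are turned, and in 5 of the 30 cow-days they did not: day 49 of cows 6934 and 7188, day 14 of cows 6983 and 7186, and day 1 of cow 7079. In the other 25 the correlation ran from -0.529 to -0.00257, so some of these pairs opposed only weakly.

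Cells meet hydrogen peroxide as a by-product of oxygen use. Superoxide dismutases make it from superoxide, and catalase, glutathione peroxidases and peroxiredoxins remove it, catalase by splitting it and the others mostly by spending glutathione or thioredoxin. Catalase sits mainly in peroxisomes, which are plentiful in hepatocytes, and red blood cells also hold much catalase and PRDX2.

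The direction of the ratios is only likely, since the labels do not name the numerator dye. With Cy3 as the numerator, all signs below would turn round, differences between days included. A value of 0 is the median of its array, and the reference RNA is not described further, so a ratio shows neither an absolute level nor which of 2 genes is more abundant. Of 5 hepatocyte marker genes tested, 4 lay above the reference and 0 below it, while 5 of 5 stellate cell and fibroblast markers lay below it. Among all tested clones 22.3% lay above and 25.2% below. The direction was chosen with such tissue genes in view, so these counts do not check it. Arrays have no sequencing depth, so the precision is limited by how many there are.

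Against the reference RNA, 6 of the 14 tested members lay higher in liver and 5 lay lower, by limma on the 5 cow means with a Benjamini-Hochberg adjusted p under 0.05. Among all tested clones 22.3% lay higher and 25.2% lower. The members above the reference were CAT, SOD1, PRDX3, SOD2 clone b, PRDX5 and PRDX6 clone a. Those below it were GPX8, PRDX1, GPX4, PRDX2 and PRDX4. GPX1, PRDX6 clone b and SOD2 clone a did not pass. In bulk liver, a difference in the number of cells of a type and a difference in RNA per cell cannot be told apart.

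**Figure D1:**
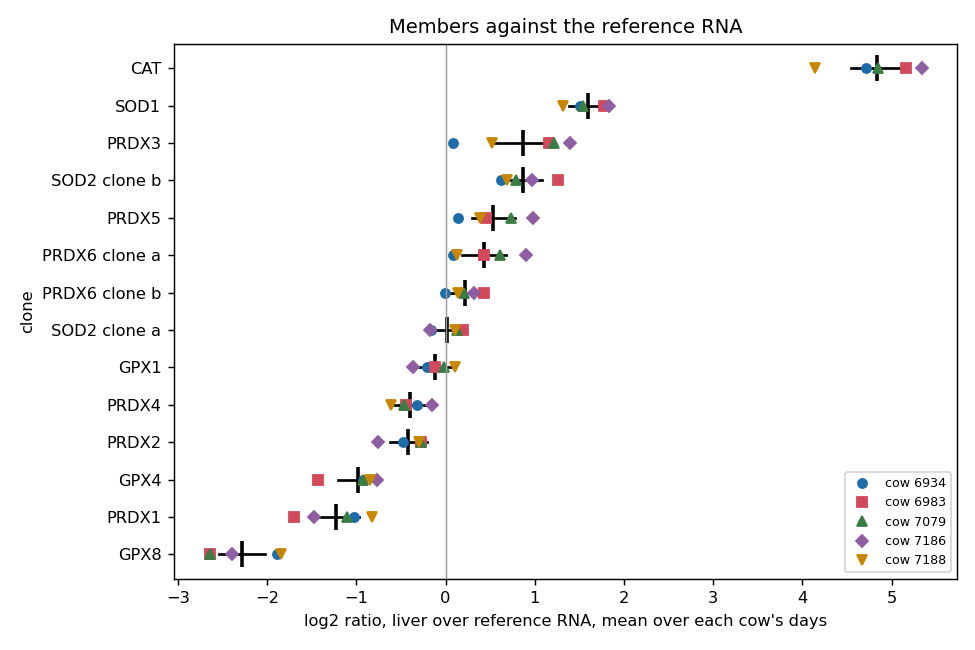
Log2 ratio of liver over reference RNA for the 14 tested members (rows), as the mean over each cow's days (coloured symbols), with the mean over 5 cows (vertical bar) and its 95% limma interval (line). CAT lies at 4.84, far to the right of SOD1 at 1.594, and GPX8 lies lowest at -2.28.

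CAT averaged 4.84 ± 0.46 (SD, n = 5 cows) on the log2 scale, which is 28.6-fold above the reference with a 95% interval of 23.4 to 35.0. Its cow means were 4.71, 5.17, 4.84, 5.34 and 4.14 in the order of the cow numbers. It had the seventh highest ratio of 5280 clones and was the only member at least 4-fold above the reference in all 5 cows, as were 0.985% of tested clones. No member was at least 4-fold below the reference in all 5 cows, against 0.587% of tested clones.

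SOD1, the copper-zinc dismutase of the cytosol, averaged 1.594 ± 0.207, or 3.02-fold above the reference, with cow means between 1.32 and 1.83 (SD, n = 5 cows). PRDX3, the peroxiredoxin of mitochondria, averaged 0.87 ± 0.55 and varied most between cows of all 14 tested members, with 0.083 in cow 6934 and 1.39 in cow 7186. PRDX5, found in mitochondria, peroxisomes and the cytosol, averaged 0.54 ± 0.33. All 5 cow means lay above 0 for each of these genes.

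GPX8, a peroxidase of the endoplasmic reticulum membrane, averaged -2.28 ± 0.39 (SD, n = 5 cows), 4.87-fold below the reference. PRDX1, the main cytosolic peroxiredoxin of many cells, averaged -1.22 ± 0.35, or 2.33-fold below. GPX4, which reduces lipid peroxides in membranes, averaged -0.98 ± 0.26, or 1.97-fold below. These were below 0 in 30 of 30 cow-days each. PRDX2 at -0.42 ± 0.21 and PRDX4, the peroxiredoxin of the secretory pathway, at -0.40 ± 0.17 lay closer to the reference, 1.33-fold and 1.32-fold below. GPX1, the selenium-dependent peroxidase of the cytosol and mitochondria, averaged -0.12 ± 0.18 with a limma adjusted p of 0.344.

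On the larger print, the paired clones of the same gene did not give the same value. SOD2, the manganese dismutase of mitochondria, averaged 0.87 ± 0.26 on clone b and 0.018 ± 0.17 on clone a (SD, n = 5 cows), and the cow means of the clones did not overlap. Clone b passed the test with a limma adjusted p of 3.27e-06 and clone a did not, with 0.917. PRDX6, which uses glutathione, averaged 0.43 ± 0.35 on clone a and 0.22 ± 0.17 on clone b, with overlapping cow means. Which part of each transcript the clones hold was not analysed here.

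The ratios also depended on the dye. The mean ratio was higher with liver in Cy5 than in Cy3 for 13 of the 14 tested members, GPX8 being the exception, and for 53.83% of all tested clones. GPX1 averaged 0.35 with liver in Cy5 and -0.61 with liver in Cy3, and was higher in Cy5 in 29 of 30 cow-days. PRDX6 clone a averaged 1.003 with liver in Cy5 and -0.084 with liver in Cy3. For SOD2 clone a the means were 0.37 in Cy5 and -0.33 in Cy3. With Cy5 arrays alone 10 of 15 members, GPX3 being tested too, were called higher and 4 lower. With Cy3 arrays alone 4 of 14 were called higher and 7 lower, against 6 and 5 of 14 from the averaged pair. CAT stood at 5.27 with liver in Cy5 and 4.45 with liver in Cy3.

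**Figure D2:**
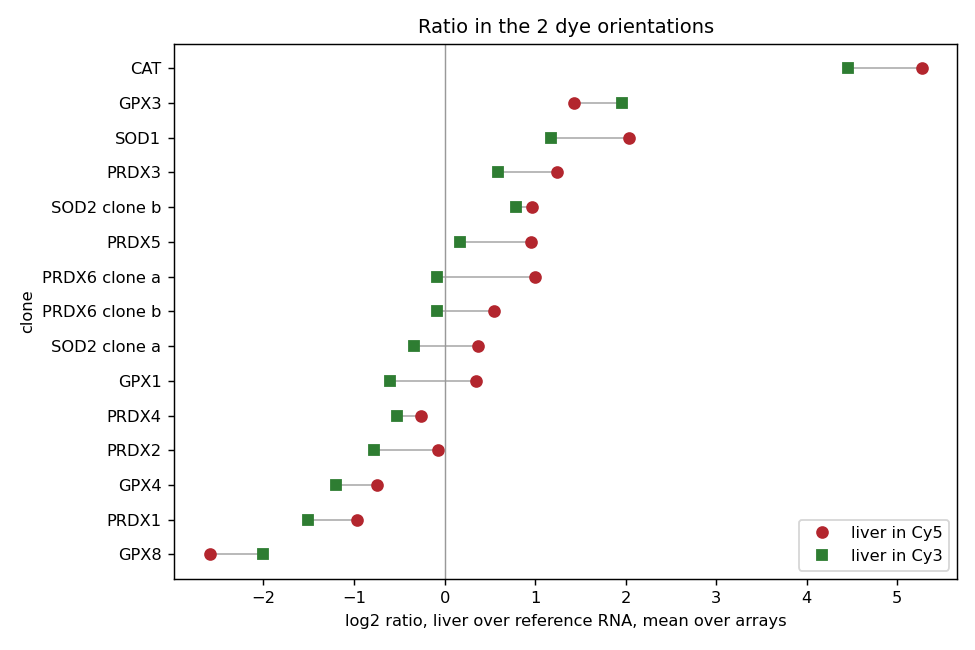
Mean log2 ratio of liver over reference RNA for the 15 members (rows), over the arrays with liver in Cy5 (red circles) and over those with liver in Cy3 (green squares). CAT stays far above 0 in both, at 5.27 and 4.45, while GPX1 lies at 0.35 and -0.61.

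Red cell markers were few on the array: 3 of the 21 listed genes were tested. GYPC lay at 0.43 and HBQ1 at 0.31 above the reference, and CA2, which is not only a red cell gene, at -1.56. Alpha and beta globin were not analysed here, and the part of red cells in the CAT ratio was not tested. PRDX2, SOD1 and GPX1 are also abundant in red cells: PRDX2 lay below the reference, SOD1 lay above it, and GPX1 did not pass.

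No member passed the test over time. The moderated F test over the 7 days called 0 of 14 members at a limma adjusted p under 0.05, against 0.0189% of all clones, which is 1 clone and not a member. At an unadjusted p under 0.05 it held 2 of 14 members, PRDX4 and PRDX6 clone b, against 5.23% of all clones.

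The ratio of CAT to the reference stayed far above 0 in every cow and on every day, between 3.25 and 6.21 with a median of 4.98. In the order of the cow numbers, the log2 ratios were 5.185, 5.55, 5.29, 4.37 and 4.67 on day -65, and 3.86, 5.63, 5.29, 6.21 and 4.60 on day -30. On day -14 they were 4.71 in cow 6983, 4.69 in cow 7186 and 5.35 in cow 7188. The lowest and the highest prepartum value fell on the same day, day -30, in cows 6934 and 7186.

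On day 1, CAT stood at 5.42, 4.85, 4.39, 5.31 and 3.25 in the order of the cow numbers. On day 14 it was 4.24 in cow 6983, 5.45 in cow 7079 and 5.68 in cow 7186. On day 28 the 5 values were 5.11, 6.02, 4.10, 5.16 and 3.58, and on day 49 the values were 3.97 in cow 6934, 4.545 in cow 7079, 5.98 in cow 7186 and 3.39 in cow 7188. All days overlapped, and on this print cow 7188 was the lowest cow on days 1, 28 and 49. On days 1 and 49 this held with either dye. On day 28 it held only with liver in Cy5, at 2.166. With liver in Cy3, cow 7079 was the lowest on that day, at 2.62. Exchanged arrays differed widely in some cow-days. In cow 7188 on day -30, CAT stood at 6.304 with liver in Cy5 and 2.899 with liver in Cy3. On day 28 these values were 6.577 and 3.734 in cow 7186, but 6.088 and 5.958 in cow 6983.

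CAT day means ran 5.01, 5.12, 4.92, 4.64, 5.12, 4.79 and 4.47 from day -65 to day 49, and the spread within cows was 0.70 (SD). The F statistic was 0.358 with a limma adjusted p of 0.996. On day 1 CAT differed from day -30 by -0.47 on the log2 scale (SE 0.45, limma adjusted p 0.814) and was lower in 4 of 5 cows. This estimate was -0.98 without cow 6934, -0.26 without cow 7188, and -1.84 with all arrays scaled to the same median absolute deviation (limma adjusted p 0.239). In lactation (days 14, 28 and 49) it differed from prepartum (days -65, -30 and -14) by -0.27, with a 95% interval of -0.886 to 0.339. This difference was -0.60 without cow 7186 and lay on the other side of 0 without cow 7188, at 0.079. With the 5 cow-days of unopposed arrays left out it was 0.23.

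**Figure D3:**
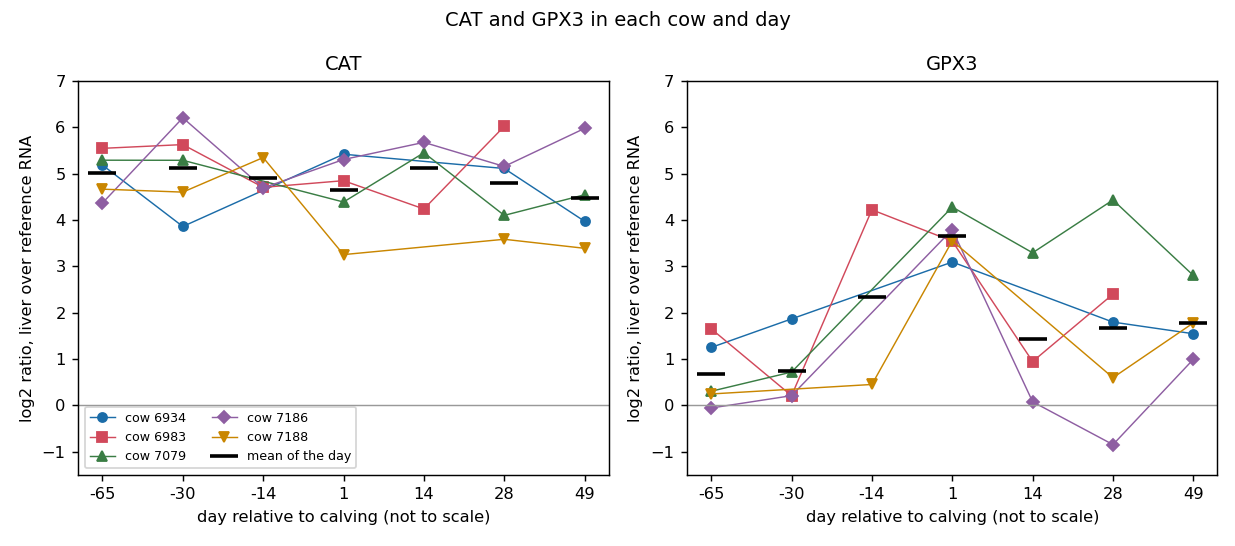
Log2 ratio of liver over reference RNA for CAT (left) and GPX3 (right) on each day relative to calving, with a symbol per cow, lines joining each cow's measured days and a black bar at the mean of the day. CAT stays between 3.25 and 6.21 on all days, and GPX3 lies between 3.09 and 4.28 in all 5 cows on day 1.

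GPX3, the secreted selenium-dependent peroxidase of blood plasma, was the member left out of the tests by the filter, and it is described because of its values. Its log2 ratios on day 1 were 3.09, 3.54, 4.28, 3.79 and 3.55 in the order of the cow numbers. On day -30 it stood at 1.87, 0.21, 0.72 and 0.21 in cows 6934, 6983, 7079 and 7186, and on day -65 at 1.25, 1.65, 0.30, -0.058 and 0.24. The day 1 values did not overlap those of either day. How many of all clones separate these days was not counted, so this only describes GPX3. Cow 7188 has no day -30 value, since only its array with liver in Cy3 gave one, at 0.86.

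Days -14, 14 and 28 overlapped day 1, and day 49 lay below it. On day -14 GPX3 stood at 4.22 in cow 6983 and 0.45 in cow 7188, and on day 14 at 0.945 in cow 6983, 3.29 in cow 7079 and 0.076 in cow 7186. On day 28 the 5 values were 1.80, 2.40, 4.43, -0.85 and 0.60, and on day 49 they were 1.545, 2.80, 0.993 and 1.78 in cows 6934, 7079, 7186 and 7188. Cow 7079 stayed high after calving, whereas the other 4 cows were lower on day 28 than on day 1.

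With clones measured in at least 2 cows on each day, GPX3 on day 1 was 3.09 above day -30 on the log2 scale (SE 0.64, 95% interval 1.77 to 4.41). It was higher in 4 of 4 cows with both days, by 1.23 to 3.59, but the limma adjusted p was 0.13 and the difference did not pass. The unadjusted p of 8.44e-05 was the third smallest of 5582 clones in this limma fit, which called 0.0179% of clones for day 1 against day -30 and 0.0179% for the day effect. Day 1 minus day -14, with 2 cows on day -14, was 1.16 in the same fit (SE 0.82, 95% interval -0.55 to 2.87). Its unadjusted limma p was 0.173. On day 28 GPX3 differed from day 1 by -1.98, with a limma adjusted p of 0.411. This fit and this gene were singled out after the values were seen.

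The GPX3 spots were less exact than those of CAT. Its 2 spots correlated at 0.706 across arrays, against 0.98 for CAT. Of its 110 spot values, 51.8% equalled a ratio of whole numbers up to 40 at the 3 decimals deposited, and of those with a size between 0.85 and 2.76 on the log2 scale 53.7% did, against 28.5% of values of that size over all listed clones. For CAT 3.33% of 120 spot values did. The CAT values were larger, and those beyond 40-fold cannot equal such a ratio. Of CAT values with a size between 4.09 and 5.60, 1.67% did, against 32.9% of values of that size over all listed clones. What such ratios stem from was not tested.

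Day 1 against day -30 spans calving in all 5 cows. It called 0 of 14 members by limma adjusted p, against 0.0189% of all clones. At an unadjusted p under 0.05 it held 3 members, PRDX5 and both PRDX6 clones, against 8.39% of all clones. Estimates were below 0 in 11 of 14 members, with a median of -0.32, and in 57.1% of all clones, with a median of -0.056.

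PRDX6 clone b stood at -0.077, 0.54, -0.21, -0.196 and 0.067 on day 1, against 0.10, 0.57, 0.30, 1.24 and 0.29 on day -30, in the order of the cow numbers. It was lower on day 1 in 5 of 5 cows, and the ranges overlapped. The limma estimate was -0.48 (SE 0.16, adjusted p 0.439), and -0.23 without cow 7186. PRDX6 clone a gave -0.66 (SE 0.25, limma adjusted p 0.523) and was lower in 4 of 5 cows. SOD1 differed by -0.42 and PRDX3 by -0.56 with intervals that included 0.

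**Figure D4:**
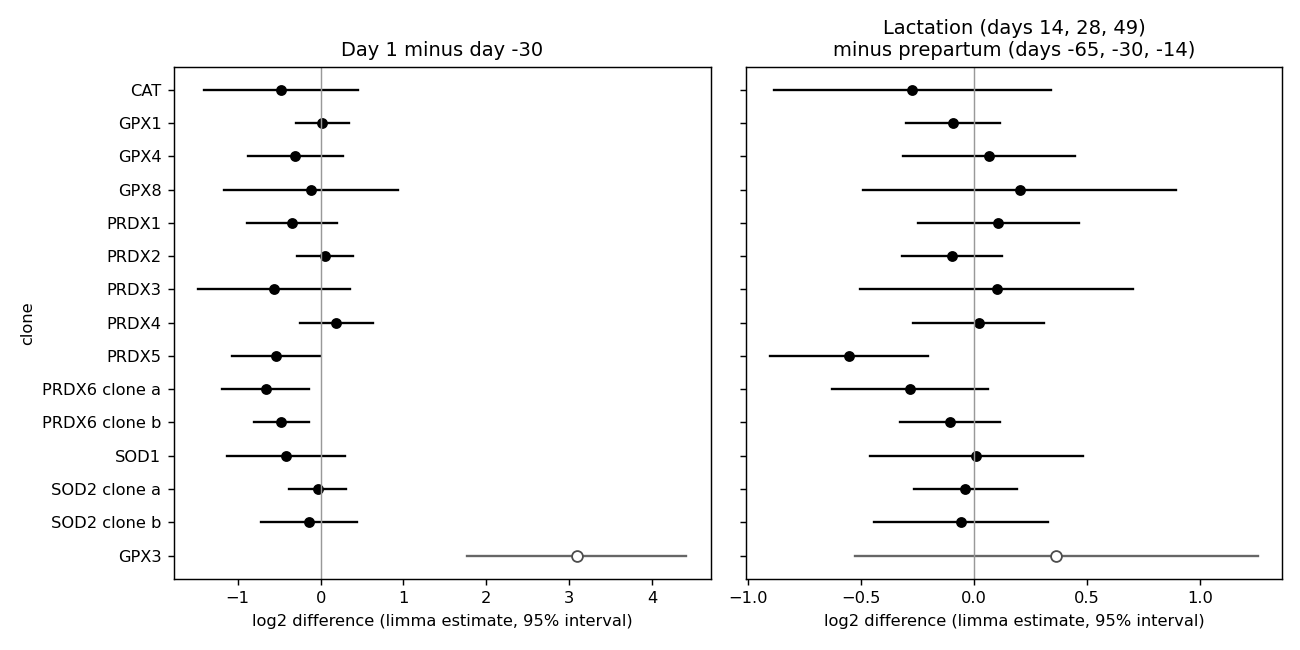
Limma estimates (points) with 95% intervals (lines) on the log2 scale for day 1 minus day -30 (left) and lactation minus prepartum (right), for the 14 tested members (filled) and GPX3 in the wider fit (open). GPX3 stands at 3.09 on the left, and on the right PRDX5 at -0.55 lies below 0 with its whole interval.

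Day 1 against day -14, with 3 cows in both, called 0 of 14 members, as it called 0% of all clones. No member had an unadjusted p under 0.05 in this limma contrast, against 2.33% of all clones. Day 28 against day 1 called 0 of 14 members and 0% of all clones. At an unadjusted p under 0.05 it held PRDX2 and PRDX6 clone b, against 7.84% of all clones. On day 28 PRDX2 differed from day 1 by -0.349 on the log2 scale (limma adjusted p 0.623), whereas the estimates of the other 13 members were above 0. Of all clones 38.2% had an estimate below 0 there.

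Lactation against prepartum called 0 of 14 members and 0% of all clones. One member, PRDX5, had an unadjusted p under 0.05, against 3.88% of all clones. Its log2 ratio in lactation differed from prepartum by -0.0065, -0.34, -0.54, -0.94 and -0.54 in the order of the cow numbers. All 5 cows were lower in lactation, cow 6934 by almost nothing. The limma estimate was -0.55 (SE 0.17, 95% interval -0.903 to -0.203), with an unadjusted p of 0.00339, the fourteenth smallest of 5280 clones, and an adjusted p of 1. PRDX5 day means were 0.66, 0.90 and 0.98 on days -65, -30 and -14, 0.36 on day 1, and 0.31, 0.42 and 0.35 on days 14, 28 and 49.

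PRDX4 had its highest day means on days 28, 1 and -14: the means were -0.78, -0.36, -0.20, -0.17, -0.34, -0.16 and -0.69 from day -65 to day 49. Its F statistic was 2.66 with an unadjusted limma p of 0.041 and an adjusted p of 0.935. Over the 14 tested members, the gap between the highest and the lowest day mean ran from 0.37 for PRDX2 to 0.87 for PRDX3 on the log2 scale. Day means, those of CAT and PRDX5 included, are over different cows, so these gaps also hold differences between cows. The highest PRDX3 mean, on day 14, came from cows 6983, 7079 and 7186, which had the highest PRDX3 cow means. Their PRDX3 values were 0.69, 1.61 and 2.16 on day 14, and 0.78, 1.24 and 2.26 on day 1, the lowest day.

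**Figure D5:**
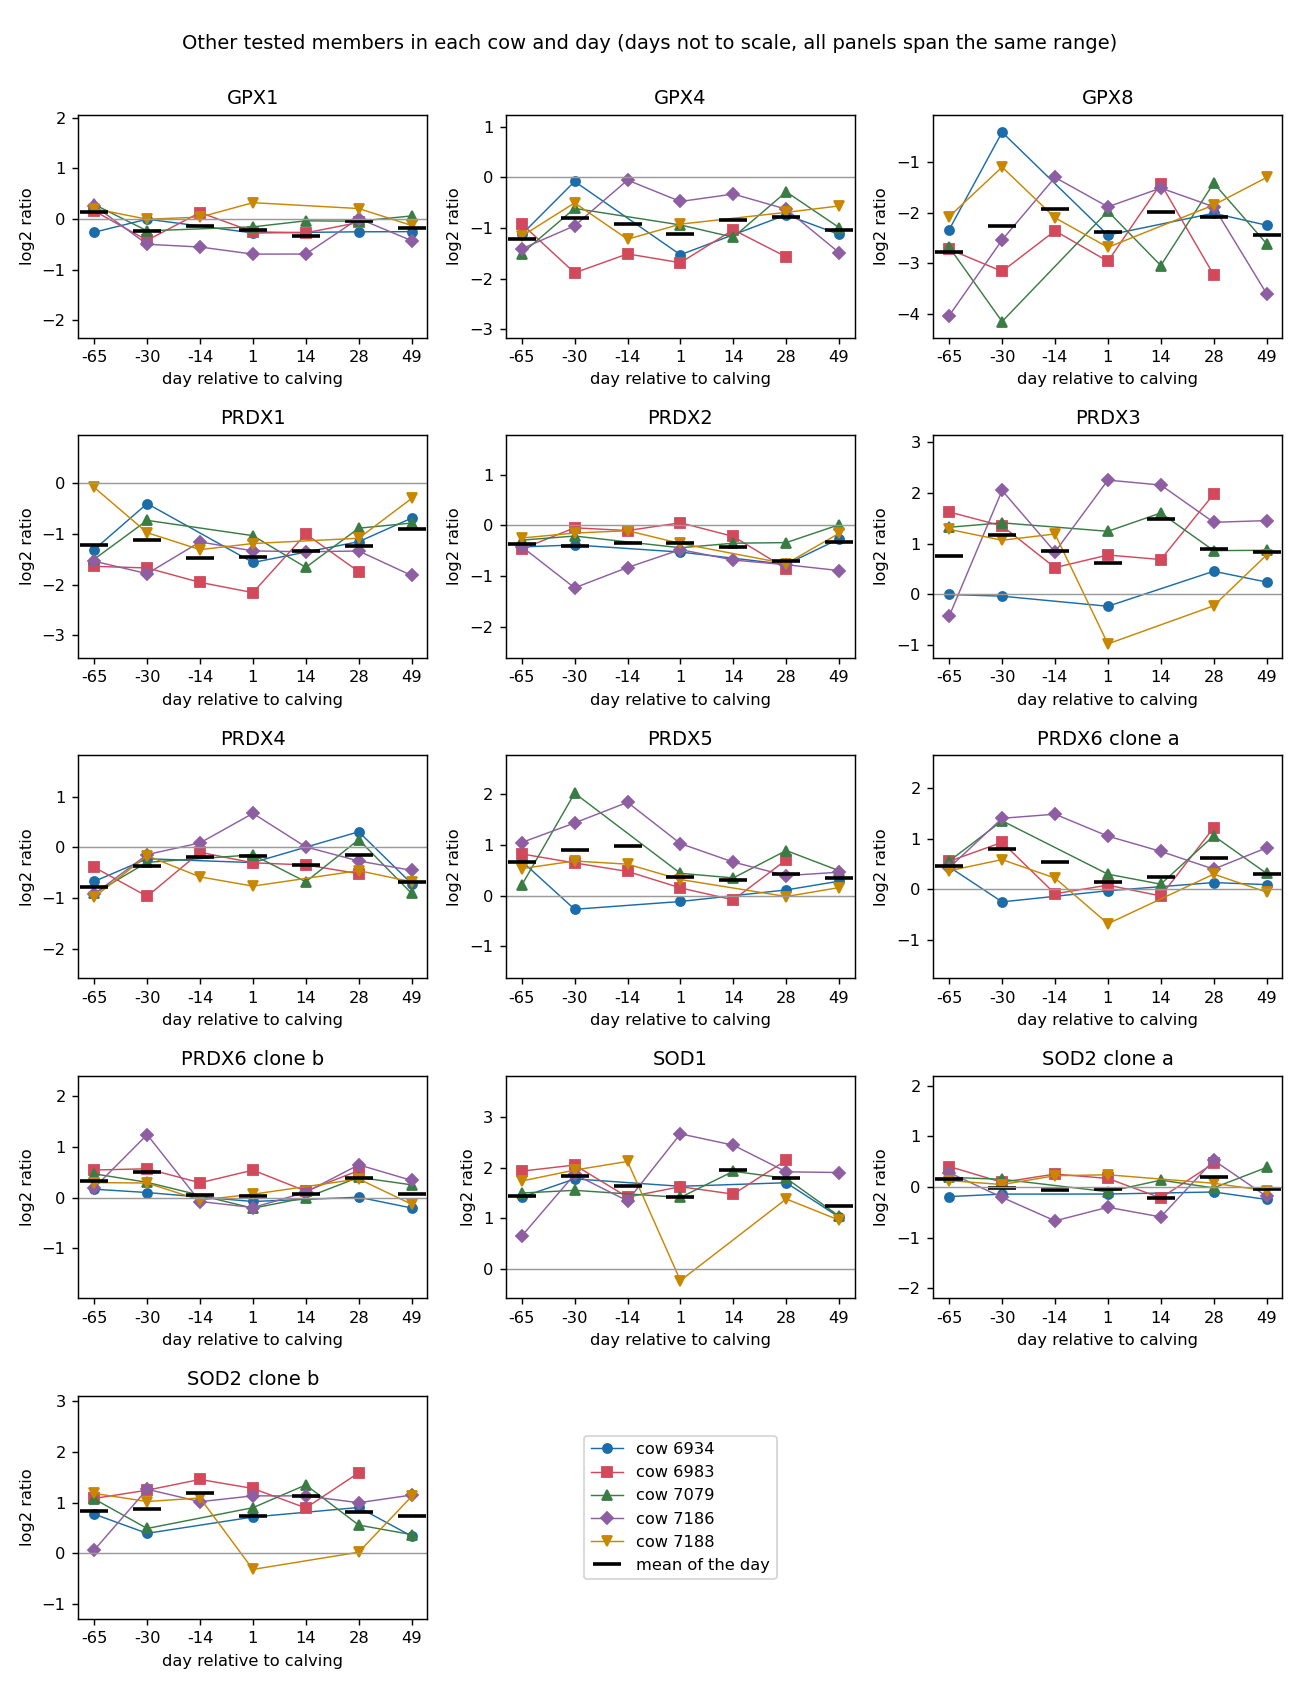
Log2 ratio of liver over reference RNA for the other 13 tested members on each day relative to calving, with a symbol per cow, lines joining each cow's measured days and a black bar at the mean of the day. Panels differ in position but span the same range, and in cow 7188 on day 1 PRDX3, SOD1 and SOD2 clone b are at their lowest.

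One cow-day stood out in several members. Cow 7188 on day 1 held the lowest of all 30 values for CAT (3.25), PRDX3 (-0.981), PRDX6 clone a (-0.68), SOD1 (-0.23) and SOD2 clone b (-0.32). That is 5 of 14 tested members, or 35.7%, and all 5 are among the 6 members above the reference. The same cow-day held the lowest value of 11.9% of all tested clones and of 10.8% of the clones above the reference. Without cow 7188, day 1 against day -30 gave -0.18 for PRDX3, and for SOD1 at 0.022 and SOD2 clone b at 0.16 it lay on the other side of 0. Without cow 7186 it gave -0.72 for SOD1.

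Members moved together in some pairs once each cow's mean was removed. Over 30 cow-days, which share arrays and reference, PRDX3 correlated with SOD1 at 0.831 and with SOD2 clone b at 0.785, and these were 0.786 and 0.728 without cow 7188 on day 1. GPX4 correlated with GPX8 at 0.731 and PRDX5 with PRDX6 clone a at 0.719. The other clone of the same gene did not share this: PRDX3 with SOD2 clone a gave -0.177, and PRDX5 with PRDX6 clone b gave 0.106. The SOD2 clones correlated with each other at -0.191 and the PRDX6 clones at 0.318. CAT correlated best with PRDX3, at 0.689. The lowest value was -0.512, between GPX1 and PRDX3. Correlations between pairs of all clones were not computed for comparison. GPX4 and GPX8 both followed how strongly a cow-day spread its ratios, described below, at -0.594 and -0.792. The part of that spread in the correlations between members was not tested.

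The genes most like CAT by the same measure, of 4865 clones compared over 30 cow-days, were MTHFD1, a folate enzyme (0.904), PHYH, which starts the breakdown of phytanic acid in peroxisomes (0.895), ACAD8, an enzyme of valine breakdown (0.864), HAVCR1 (0.858) and PYGL, the liver glycogen phosphorylase (0.854). The middle of all clones was 0.0495, with 95% of them below 0.599. All of these named genes lay above the reference, at log2 ratios from 1.63 for MTHFD1 to 5.86 for HAVCR1. CAT also followed how strongly a cow-day spread its ratios: the slope of a cow-day on the mean of the others ranged from 0.571 to 1.34 and correlated with CAT at 0.702. For GPX8, PRDX1 and GPX4, the members furthest below the reference, this correlation was -0.792, -0.749 and -0.594. A clone with a ratio far from 0 tends to follow this slope by the way it is computed. The signs of these correlations are therefore not a finding about these members. The part of the slope in the likeness of other genes to CAT was not tested. With cow-days divided by this slope, CAT gave -0.63 for day 1 minus day -30 and 0.29 for lactation minus prepartum, against -0.47 and -0.27 unscaled. With arrays scaled to the same median absolute deviation, SOD1 gave -0.99 for day 1 minus day -30, against -0.42 unscaled. None of these passed by limma adjusted p.

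Genes of related pathways were also measured, not all of which supply these enzymes. Of 21 tested genes listed under thiol and glutathione supply, 7 lay above the reference, 3 below, and 11 did not pass. The shares over all tested clones were 22.3% above and 25.2% below. MSRA, which repairs oxidised methionine, lay at 2.33 ± 0.30 (SD, n = 5 cows), or 5.04-fold above, while SELENOT at -0.056 and FTH1, the heavy chain of ferritin, at -0.0080 did not pass. Of 7 genes of NADPH supply, 3 lay above and 3 below. TKT, transketolase, lay at -0.63 and ME1, malic enzyme, at -1.27, both below, and IDH2 at -0.034 did not pass.

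Of 16 tested genes of peroxisomes and other hydrogen peroxide sources, 11 lay above the reference and 0 below, with a median of 0.73 against -0.0092 for all clones. Over all tested clones 22.3% lay above and 25.2% below. AOX1, aldehyde oxidase, lay at 3.79 ± 0.46, or 13.8-fold above, and ECI2, an enzyme of unsaturated fatty acid breakdown, at 2.203 ± 0.149 (SD, n = 5 cows), while PEX19 at -0.13 did not pass. No gene of the 3 lists passed any test over time by limma adjusted p. The smallest unadjusted p for the day effect in these lists was 0.00298 for TKT, whose limma adjusted p was 0.719 and which on day 1 differed from day -30 by -0.828 on the log2 scale (adjusted p 0.377).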

How the data were processed

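Per the labels, arrays were scanned on a Scanarray 4000 and quantified in GenePix 4.0. What the authors deposited is a log2 ratio between the dye channels for each spot. How background was corrected, spots flagged and values normalized, and which dye is the numerator, is not given in the sources used here. The deposited log2 ratios form 2 tables from different prints, and tests were run within the larger one (60 of 68 arrays, 16416 rows), except in the alternative that joined both. Arrays with liver in Cy3 were turned, each array was centred on its median (between -0.948 and 0.643 before), the 2 spots of a clone were averaged, and then the exchanged pair, both required. Symbols were updated through gene identifiers for 5591 of 5693 clones, and clones naming several genes (95) were not named.

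Fits used limma 3.58.1 in R 4.3.3, with terms for day and cow (19 residual degrees of freedom), a moderated F test and 4 contrasts, and an intercept on cow means for the reference. P-values were adjusted by Benjamini-Hochberg over all 5280 clones, with a threshold of 0.05, 2-sided. Cow entered as a block since, per the labels, each animal gave liver on several days: deviations from day means correlated on average at 0.13 within a cow and at -0.031 between cows and days. P-values measure the spread between these cow-days, which also holds array noise.

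Genes other than members were named by rule: the 5 most like CAT, and in each pathway list the genes past a time test or otherwise the 3 with the smallest day-effect p. The members and lists were chosen with earlier results of these data known. Estimates for lactation against prepartum and against the reference were tested on simulated data with independent noise. That noise lacked the spread shared by the clones of a cow-day. These runs therefore do not show how often changes would be called in these data. Figures used matplotlib 3.10.9. Alternatives covered the block, each cow left out, centring, scaling, dye, spots, filters, array weights and both tables joined.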

Additional observations from a re-analysis of the deposited data

Results flagged for a closer look

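In 7 of 89 groups of 4 or 5 values (members on a day, or cow means), one value lay far from the others relative to the group's range. Chance picks out about 1 in 20 groups. The values are log2 ratios. In GPX1 on day -65, cow 6934 was low at -0.2592, with the nearest cow at 0.1612. For GPX4 against the reference, the mean of cow 6983 was low at -1.435, with the nearest at -0.921. PRDX1 on day -65 was high in cow 7188 at -0.0815, with the nearest cow at -1.308. PRDX2 on day -30 was low in cow 7186 at -1.235 and on day 28 was high in cow 7079 at -0.341. For PRDX4 on day -30, cow 6983 was low at -0.9685. Among the 4 cows of SOD1 on day 49, cow 7186 was high at 1.904, with the nearest at 1.043.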

How the results depend on the processing

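No member was called in the 4 contrasts between days under any of 19 alternatives, and in the day effect only array weights called any: 4 members (PRDX4, both PRDX6 clones and SOD1, limma adjusted p 0.0114 to 0.0464), where 1026 of all clones were called against 1. These weights ran from 0.204 to 10.3 and their estimation stopped before it converged. Over the alternatives, all clones called ranged from 0 to 84 for day 1 against day -30, 0 to 51 for day 1 against day -14, 0 to 81 for day 28 against day 1, 0 to 26 for lactation against prepartum, and 1976 to 3732 against the reference. Without the replicate block, lactation minus prepartum was -0.489 in PRDX5 and -0.219 in CAT, with the block as a random effect -0.523 and -0.248, and no call of a member changed. PRDX5 lay between -0.697 and -0.379 over 19 alternatives and never passed. GPX3 on day 1 minus day -30 lay between 2.554 and 3.671 over 11 other settings, with adjusted p 0.0603 to 0.613, and never passed. Members called against the reference ran from 10 of 13 (first spots only) to 14 of 15 (liver in Cy5 only, with GPX3 tested too), and were 11 of 14 when any cow was left out. With liver in Cy3 only, PRDX6 clone a was -0.1079 and SOD2 clone a -0.3305, and PRDX5 at 0.15 did not pass. With liver in Cy5 only, GPX1 was 0.354, and PRDX2 at -0.069 did not pass. The cause was not tested. CAT stayed between 4.436 and 5.244. Without centring, the median of all clones moved to 0.137 for lactation minus prepartum and to 0.0688 for day 1 minus day -30, and PRDX5 lay at -0.41 in lactation minus prepartum. Over the 19 alternatives CAT on day 1 minus day -30 lay between -1.843 and -0.255 and never passed. Fits with at least 2 cows on each day and with cow-days scaled on the mean profile were added after seeing the data. No signal over background was available to set a limit for dim spots.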

Other observations

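The 4 cow-days on the other print entered only the alternative that joined both tables. CAT there lay at 5.40 in cow 6934 and 4.68 in cow 7079 on day -14, and at 5.46 in cow 6934 and 5.66 in cow 7188 on day 14. GPX3 lay at 1.20 and 1.315 in the same cows on day -14 and at 1.15 and 0.54 on day 14. PRDX2 lay at -1.63 and -1.17 on day -14 and at -2.01 and -2.90 on day 14, 3 of these 4 values below the lowest of the 30 cow-days on the larger print, -1.235. SOD2 clone a lay between 0.33 and 1.10, with 3 of 4 values above the highest of the larger print, 0.5275. SOD2 clone b there lay between 0.295 and 1.17, so the SOD2 clones overlapped on that print. Whether the prints were normalized together is not given in the sources used here, and these values were not tested against the larger print.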
